A study of Homo sapiens with 12 samples.

Results

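The 10 genes described here belong to the BCL2 family, which controls whether a cell commits to mitochondrial apoptosis. They were taken by name from a list that was chosen with earlier results of these data known. They were mapped by Ensembl identifier to the count tables of the series, where they make up 10 of 63677 genes. All 10 passed the filter on low counts, which left 21325 genes for testing. They comprise 5 BH3-only members (PMAIP1, BCL2L11, BBC3, BIK and BMF), 2 effectors (BAX and BAK1) and 3 survival members (MCL1, BCL2L1 and BCL2L2). MDA-MB-468, SUM149PT and HCC38, 3 lines derived from basal-like breast cancer, supplied the libraries. In each line the long non-coding RNA LINC01956 (ENSG00000258910, labelled RP19 KD where knocked down) was knocked down with the locked nucleic acid oligonucleotides LNA1/2, and the control was the non-silencing oligonucleotide LNA NS. Both were transfected at seeding at 50 nM, the medium was exchanged 6 h later, and the cells were harvested at 24 h. Each of the 6 groups had 2 libraries of poly-A selected RNA, so n = 2 for every mean ± SD below. The lines were each grown in their own medium, so line and medium cannot be told apart. Whether both libraries of a group stem from independent cultures is not stated, and p-values measure the spread between these libraries only.

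In the mitochondrial pathway, survival proteins of the BCL2 family hold the effectors BAX and BAK1 in check on the outer mitochondrial membrane. BH3-only proteins bind the survival proteins, and some of them also the effectors, through a short helix, the BH3 domain. Once released, the effectors form pores, cytochrome c leaves the mitochondrion and caspases are activated. The balance is set largely by protein binding and stability, which transcript counts do not show.

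The sequences around annotated transcription starts are given for PMAIP1, BCL2L11 and BBC3, because these BH3-only genes are known to be controlled by transcription (p53 for PMAIP1 and BBC3, FOXO factors for BCL2L11) and rose in each line. RefSeq windows of 300 bases, which cover 1 annotated start each and do not cover other starts of the gene, were available for 7 of the 10 members in 9 windows. They were placed on GRCh37 by an exact and unique match. Capitals mark motif matches and the letters run 5′ to 3′ on the strand of the gene.
PMAIP1, chr18:57566978-57567277, plus strand: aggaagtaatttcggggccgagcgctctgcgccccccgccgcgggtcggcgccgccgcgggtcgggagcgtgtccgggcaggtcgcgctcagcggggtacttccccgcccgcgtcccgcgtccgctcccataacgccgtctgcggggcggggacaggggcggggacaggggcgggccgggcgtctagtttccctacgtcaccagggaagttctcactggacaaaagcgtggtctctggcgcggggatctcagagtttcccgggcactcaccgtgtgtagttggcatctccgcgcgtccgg
BCL2L11, chr2:111878241-111878540, plus strand: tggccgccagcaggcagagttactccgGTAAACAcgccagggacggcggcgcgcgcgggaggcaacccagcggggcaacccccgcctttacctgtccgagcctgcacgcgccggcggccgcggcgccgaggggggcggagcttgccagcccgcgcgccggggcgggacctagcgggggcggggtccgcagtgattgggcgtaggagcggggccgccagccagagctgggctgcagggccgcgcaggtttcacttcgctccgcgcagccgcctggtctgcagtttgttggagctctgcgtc
BBC3, chr19:47735875-47736174, minus strand: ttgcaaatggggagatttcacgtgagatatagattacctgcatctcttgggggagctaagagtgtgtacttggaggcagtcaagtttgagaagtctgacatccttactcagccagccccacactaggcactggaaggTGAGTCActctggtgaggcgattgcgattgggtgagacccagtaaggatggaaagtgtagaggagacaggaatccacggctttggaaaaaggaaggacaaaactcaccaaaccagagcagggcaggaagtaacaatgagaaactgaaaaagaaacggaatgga
Both strands were searched for E2F (TTTCCCGC, TTTGGCGC, TTTCGCGC or TTTGCCGC), AP-1 (TGANTCA), ATF4 (TGATGNAA), FOXO (GTAAACA) and the full p53 site. The BCL2L11 window held 1 FOXO match, GTAAACA, at -223 to -217 from the start. The BBC3 window held 1 palindromic AP-1 match, TGAGTCA, at -113 to -107. No searched motif was found in the PMAIP1 window, nor in the other 6 windows, which belong to BMF, BAX, BAK1 and BCL2L1. Among all 35116 RefSeq windows of this length the FOXO letters occurred in 3.42%, AP-1 in 7.71%, ATF4 in 3.62%, E2F in 3.31% and the full p53 site in 0.0285%. A match is a run of letters and does not show binding.

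Depth was 32187835 to 56191152 counts over genes per library. The targeted RNA was checked first, and it fell in every line. It averaged 0.0233 ± 0.000373 CPM (counts scaled to a common library size) after knock-down and 0.703 ± 0.130 CPM with LNA NS in MDA-MB-468. The means were 0.496 ± 0.113 and 10.9 ± 0.388 CPM in SUM149PT, and 1.76 ± 0.399 and 14.8 ± 0.349 CPM in HCC38, knock-down before LNA NS. The lowest of these rests on 2 counts in all. Basal markers (7 of 7 found) were present in each line, although in HCC38 KRT14 was at 1.64 CPM or less and KRT17 at 1.46 CPM or less. Their summed level was 4929 to 5325 CPM after knock-down and 8047 to 8775 CPM with LNA NS in MDA-MB-468. It was 2627 to 2731 against 3442 to 3568 CPM in SUM149PT, and 669.7 to 707.9 against 731.4 to 814.9 CPM in HCC38. Most of the MDA-MB-468 sum was EGFR and KRT5. EGFR stood there at 2967 and 2634 against 5056 and 6055 CPM, and KRT5 at 1929 and 1848 against 2611 and 2329 CPM. CDH3 was also lower there, at 65.6 and 60.0 against 94.3 and 93.2 CPM. Not every basal marker followed the sum. FOXC1 and KRT6B were higher in both knock-down libraries of each line than with LNA NS. In MDA-MB-468 FOXC1 was at 97.8 and 112 against 59.4 and 63.7 CPM, and KRT6B at 78.5 and 82.9 against 48.0 and 46.5 CPM. KRT14 was also higher in that line, at 25.4 and 26.8 against 17.0 and 16.2 CPM, and the KRT17 groups overlapped. The luminal list (6 genes) summed to 113 to 237 CPM over all libraries, with the defining receptors ESR1 at 7.68 CPM or less and PGR at 0.242 CPM or less. Its other members were not all low, as ERBB2 reached 193 CPM in HCC38 and GATA3 ranged over 39.8 to 71.5 CPM. FOXA1 stood at 32.8 and 30.6 against 17.3 and 17.3 CPM in SUM149PT, at 3.86 and 4.12 against 1.55 and 1.76 CPM in HCC38, and at 59.6 and 61.5 against 53.9 and 57.6 CPM in MDA-MB-468. The defining immune marker PTPRC and the defining erythroid marker HBB were at or near 0 in every library, with at most 3 counts and 1 count. The immune list (4 genes) summed to 7.23 to 8.01 against 12.0 to 13.8 CPM in MDA-MB-468, to 4.20 to 4.22 against 5.96 to 7.42 CPM in SUM149PT, and to 8.34 to 9.42 against 9.05 to 9.57 CPM in HCC38. Nearly all of the immune sum was CD14, at 4.13 to 13.8 CPM. The erythroid list (3 genes) stayed at 4.23 CPM or less, a level that HBA1 reached in LNA NS replicate 2 of SUM149PT. The endothelial list (2 of 3 genes found) moved with the knock-down, upward and mainly through CDH5 in MDA-MB-468 and SUM149PT, and downward at a level near 0 in HCC38. It summed to 6.57 to 7.18 against 1.78 to 2.39 CPM in MDA-MB-468, to 2.29 to 2.56 against 0.321 to 0.521 CPM in SUM149PT, and to 0.0269 to 0.0915 against 0.143 to 0.175 CPM in HCC38. The part of the basal, luminal, immune and endothelial shifts in the results below was not tested.

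The question asked of each line was which members changed when the long non-coding RNA was lost. All 5 BH3-only genes rose in each of the 3 lines, and 2 further members, the effector BAK1 and the survival gene MCL1, also rose in each. The survival gene BCL2L2 fell in each line. BAX passed the test in none. A member was called when its p from edgeR's quasi-likelihood test, adjusted by Benjamini-Hochberg over all 21325 genes, was under 0.1. In MDA-MB-468 7 members rose and 1 fell, beside 24.9% and 25.7% of all genes tested. In SUM149PT 7 rose and 1 fell, beside 20.0% and 18.0%, and in HCC38 7 rose and 2 fell, beside 15.5% and 18.4%. Rising in each line was seen for 7 of the 10 members and for 6.60% of all genes, and falling in each line for 1 member and 8.74% of all genes. Because the members were chosen with earlier results of these data known, the shares are a description and not a test. Whether the libraries of 2 groups are apart is likewise a description below, and its share over all genes was not taken. Groups of 2 libraries can be apart without a call, as for BCL2L1 in SUM149PT (adjusted p = 0.198 in the edgeR test). On the mean of the 3 lines 7 members rose and 2 fell, beside 28.4% and 26.5%. With upper quartile factors the shares of all genes that rose and fell were 31.1% and 21.2% in MDA-MB-468, 23.1% and 13.3% in HCC38, and 35.7% and 21.1% on the mean of the lines. The median log2 fold change over the 5 BH3-only members was 1.21 for MDA-MB-468, 1.07 for SUM149PT and 0.89 for HCC38, where the median of all genes was 0.00, 0.03 and 0.01.

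**Figure D1:**
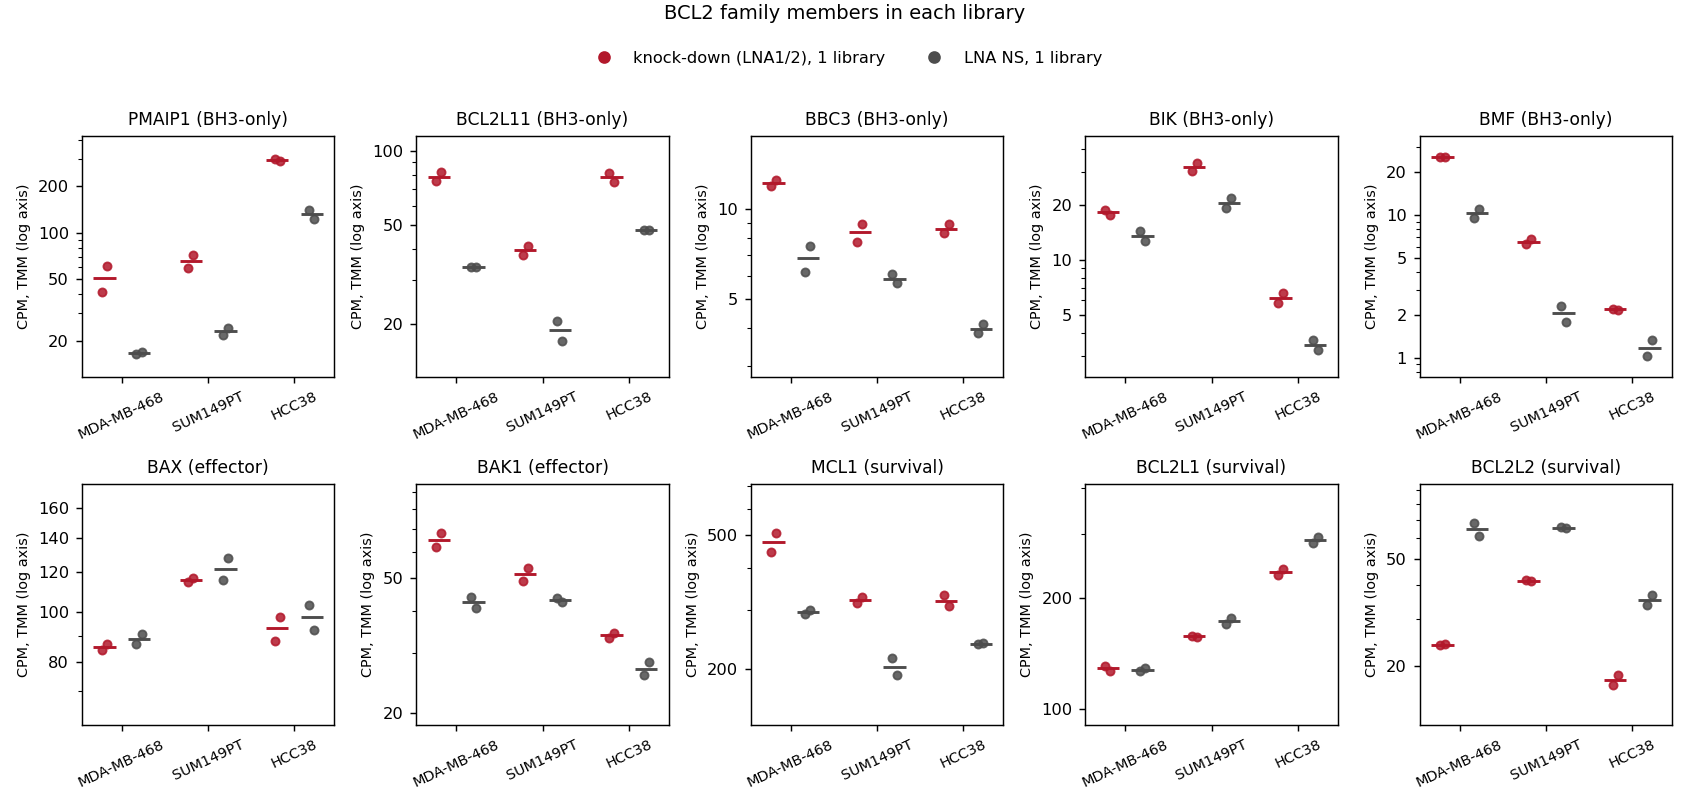
CPM of each member (log axis, a range of its own per panel) in the 12 libraries, with 1 point per library, a short bar at the group mean, and knock-down left of LNA NS in each line. The 5 BH3-only genes, BAK1 and MCL1 lie higher after knock-down in every line, BCL2L2 lies lower, and the BAX groups overlap.

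PMAIP1 encodes NOXA, a BH3-only protein that binds mainly MCL1 and that is a known target of p53 and of stress-response factors. The gene lies at chr18:57567228-57571537 on the plus strand (GRCh37, ENSG00000141682). It stood at 41.4 and 60.9 CPM in the knock-down libraries of MDA-MB-468, against 16.3 and 16.8 CPM with LNA NS. In SUM149PT it stood at 59.2 and 71.6 CPM, against 21.9 and 24.3 CPM, and in HCC38 at 301.2 and 290.7 CPM, against 141 and 122 CPM. Every knock-down library was above both LNA NS libraries of its line, and HCC38 with LNA NS was above the other lines after knock-down. The log2 fold change was 1.63 ± 0.15 (SE, adjusted p = 4.76e-07) in MDA-MB-468, 1.50 ± 0.15 (adjusted p = 2.95e-06) in SUM149PT and 1.17 ± 0.14 (adjusted p = 2.27e-05) in HCC38. On the mean of the 3 lines it was 1.43 ± 0.09, or 2.70-fold, the largest of the 10 members. The difference between lines did not pass (adjusted p = 0.224), although it did without knock-down replicate 1 of MDA-MB-468, the lower of its pair (adjusted p = 0.0253), and with no filter on low counts (adjusted p = 0.0669).

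BCL2L11 encodes BIM, a BH3-only protein that binds all survival members and also activates BAX and BAK1. It lies at chr2:111876955-111926021 on the plus strand (ENSG00000153094). Its level was 75.2 and 81.8 CPM after knock-down in MDA-MB-468, against 33.9 and 34.1 CPM with LNA NS. In SUM149PT it was 37.9 and 41.4 CPM, against 20.6 and 17.1 CPM, and in HCC38 81.1 and 75.0 CPM, against 47.9 and 47.8 CPM. The groups did not overlap in any line. Knock-down over LNA NS, the log2 fold change was 1.21 ± 0.11 (adjusted p = 2.11e-07) in MDA-MB-468, 1.07 ± 0.11 (adjusted p = 3.05e-06) in SUM149PT and 0.71 ± 0.10 (adjusted p = 0.000112) in HCC38. The change differed between lines (adjusted p = 0.0463). That call was lost when MDA-MB-468 LNA NS replicate 1 or 2, MDA-MB-468 knock-down replicate 2, HCC38 LNA NS replicate 1 or 2 or HCC38 knock-down replicate 2 was left out, with adjusted p of 0.112 to 0.182. On the opposite strand the host gene MIR4435-2HG covers 10.8% of the BCL2L11 exons. It moved the other way, with 21.7 ± 1.69 against 57.4 ± 4.61 CPM in MDA-MB-468, 26.6 ± 1.56 against 52.1 ± 5.88 CPM in SUM149PT and 41.8 ± 4.47 against 56.6 ± 6.74 CPM in HCC38, knock-down before LNA NS. The library kit kept the strand, while the sources used here do not give the strand setting of the counting, so reads in the shared exons may not have been told apart.

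BBC3 encodes PUMA, a BH3-only protein known as a p53 target that binds all survival members. It lies at chr19:47724079-47736023 on the minus strand (ENSG00000105327). It stood at 12.0 and 12.5 CPM after knock-down in MDA-MB-468, against 6.17 and 7.55 CPM with LNA NS. In SUM149PT it stood at 7.77 and 8.94 CPM, against 6.05 and 5.67 CPM, and in HCC38 at 8.31 and 8.89 CPM, against 3.85 and 4.14 CPM. The groups were apart in each line, and closest in SUM149PT. On the log2 scale the change was 0.84 ± 0.15 (adjusted p = 0.000264) in MDA-MB-468, 0.51 ± 0.15 (adjusted p = 0.0199) in SUM149PT and 1.10 ± 0.15 (adjusted p = 7.08e-05) in HCC38. In SUM149PT the call was lost without LNA NS replicate 2 (0.45, adjusted p = 0.127) and without knock-down replicate 2 (0.41, adjusted p = 0.136). The difference between lines had an adjusted p of 0.128.

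BIK encodes a BH3-only protein that sits largely on the endoplasmic reticulum. It lies at chr22:43506756-43525718 on the plus strand (ENSG00000100290). Its level was 18.8 and 17.5 CPM after knock-down in MDA-MB-468, against 14.3 and 12.7 CPM with LNA NS. The SUM149PT libraries stood at 30.6 and 33.7 CPM, against 19.2 and 21.8 CPM, and in HCC38 5.84 and 6.60 CPM, against 3.67 and 3.21 CPM. No pair of groups overlapped. This gave a log2 fold change of 0.43 ± 0.13 (adjusted p = 0.0129) in MDA-MB-468, 0.65 ± 0.13 (adjusted p = 0.000951) in SUM149PT and 0.85 ± 0.14 (adjusted p = 0.000408) in HCC38. The smallest of these, in MDA-MB-468, was not called without LNA NS replicate 2 of that line (0.34, adjusted p = 0.120). The difference between lines did not pass (adjusted p = 0.247).

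BMF encodes a BH3-only protein that is known to be held at the actin and myosin cytoskeleton until it is released. It lies at chr15:40380091-40401093 on the minus strand (ENSG00000104081). In MDA-MB-468 both knock-down libraries stood at 25.5 CPM, against 9.57 and 11.1 CPM with LNA NS. In SUM149PT it stood at 6.25 and 6.74 CPM, against 2.30 and 1.79 CPM, and in HCC38 at 2.21 and 2.15 CPM, against 1.03 and 1.33 CPM. BMF was the rarest member in HCC38, with 121 and 80 counts in the knock-down libraries and 47 and 65 counts in the LNA NS libraries. As a log2 fold change this was 1.30 ± 0.15 (adjusted p = 3.82e-06) in MDA-MB-468, 1.65 ± 0.18 (adjusted p = 5.51e-06) in SUM149PT and 0.89 ± 0.20 (adjusted p = 0.00344) in HCC38. Pooling the 2 libraries of a group, the HCC38 ratio was 1.85 with a 95% exact interval of 1.46 to 2.35, which covers counting error only. The difference between lines had an adjusted p of 0.114, and passed without LNA NS replicate 1 of SUM149PT (0.0857) or of HCC38 (0.0987).

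The effectors behaved unlike each other. BAX (chr19:49458072-49465055, plus strand, ENSG00000087088), which waits in the cytosol and inserts into the mitochondrial membrane when activated, had overlapping groups in every line. It stood at 84.3 and 86.7 CPM after knock-down against 86.7 and 90.5 CPM with LNA NS in MDA-MB-468. For SUM149PT the values were 114.6 and 117 against 116 and 128 CPM, and in HCC38 87.9 and 98.1 against 103 and 92.4 CPM. The log2 fold changes were -0.05 ± 0.09, -0.07 ± 0.09 and -0.07 ± 0.09, with adjusted p of 0.700, 0.610 and 0.607. After removal of a trend on gene span the mean of the 3 lines was -0.20 (adjusted p = 0.00224), and with upper quartile factors it was 0.04 (adjusted p = 0.583), so no direction is given for BAX.

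BAK1 (chr6:33540324-33548070, minus strand, ENSG00000030110), the effector that resides on the mitochondrial membrane, rose. It stood at 61.7 and 68.1 CPM after knock-down against 44.1 and 41.0 CPM with LNA NS in MDA-MB-468. In SUM149PT it was 49.1 and 53.7 against 43.6 and 42.6 CPM, and in HCC38 33.3 and 34.5 against 25.9 and 28.2 CPM. All knock-down libraries were above their LNA NS libraries. The log2 fold change was 0.61 ± 0.10 (adjusted p = 0.000103) in MDA-MB-468, 0.25 ± 0.10 (adjusted p = 0.0636) in SUM149PT and 0.33 ± 0.10 (adjusted p = 0.0239) in HCC38. Among the single lines, only the MDA-MB-468 call held under every alternative tried other than the 2-fold minimum, which BAK1 met in no line. Without SUM149PT LNA NS replicate 1, LNA NS replicate 2 or knock-down replicate 2 the SUM149PT value was 0.27, 0.23 or 0.20 (adjusted p = 0.160, 0.255 and 0.311). Without HCC38 LNA NS replicate 1 or knock-down replicate 2 the HCC38 value was 0.26 or 0.30 (adjusted p = 0.178 and 0.124), and after removal of the gene span trend it was 0.17 in both SUM149PT and HCC38 (adjusted p = 0.197 and 0.204). On the mean of the 3 lines it was 0.40 ± 0.06 (adjusted p = 2.63e-05).

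The survival members split 3 ways. MCL1 (chr1:150533371-150552214, minus strand, ENSG00000143384), a short-lived protein that is the main partner of NOXA, rose in each line. It stood at 445 and 508 CPM after knock-down against 292 and 300.3 CPM with LNA NS in MDA-MB-468. The SUM149PT libraries stood at 314 and 328 against 216 and 192 CPM, and in HCC38 332 and 308 against 238 and 239 CPM. The groups did not overlap in any line. Knock-down over LNA NS, the log2 fold change was 0.69 ± 0.09 (adjusted p = 1.40e-05) in MDA-MB-468, 0.65 ± 0.09 (adjusted p = 5.53e-05) in SUM149PT and 0.42 ± 0.09 (adjusted p = 0.00228) in HCC38. The difference between lines did not pass (adjusted p = 0.234). The MCL1 count sums the long, protective splice form and the short forms, which gene counts do not separate.

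BCL2L1 (chr20:30252255-30311792, minus strand, ENSG00000171552), whose long product BCL-XL protects cells and whose short product BCL-XS promotes death, changed least among the survival members. It stood at 131 and 127 CPM after knock-down against 127 and 129 CPM with LNA NS in MDA-MB-468. For SUM149PT the values were 157.9 and 157 against 170.4 and 176 CPM, and in HCC38 231 and 241 against 283 and 294 CPM. The groups overlapped in MDA-MB-468 and were apart in the other lines. On the log2 scale the change was 0.01 ± 0.08 (adjusted p = 0.932) in MDA-MB-468, -0.14 ± 0.08 (adjusted p = 0.198) in SUM149PT and -0.29 ± 0.08 (adjusted p = 0.0107) in HCC38, and on the mean of the lines -0.14 ± 0.04 (adjusted p = 0.0169). With upper quartile factors, which moved the median of all genes upward, the HCC38 value was -0.16 (adjusted p = 0.146) and the mean -0.03 (adjusted p = 0.642), and neither was called. The antisense RNA ABALON covers 41.3% of the BCL2L1 exons in the annotation and was not analysed here.

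BCL2L2 (chr14:23767999-23780960, plus strand, ENSG00000129473), which encodes the survival protein BCL-W, fell in each line. It stood at 23.9 and 24.2 CPM after knock-down against 68.2 and 60.9 CPM with LNA NS in MDA-MB-468. In SUM149PT it was 41.7 and 41.6 against 65.6 and 65.4 CPM, and in HCC38 17.0 and 18.5 against 33.8 and 36.8 CPM. Both knock-down libraries lay below the LNA NS pair in each line. This gave a log2 fold change of -1.42 ± 0.10 (adjusted p = 2.16e-08) in MDA-MB-468, -0.65 ± 0.10 (adjusted p = 0.000109) in SUM149PT and -0.99 ± 0.10 (adjusted p = 3.29e-06) in HCC38. The change differed between lines (adjusted p = 0.00336), also without any 1 library (adjusted p = 0.00377 to 0.0212). The read-through gene BCL2L2-PABPN1, which covers 16.8% of the BCL2L2 exons on the same strand, held 95 counts in the 12 libraries together. Reads in the shared exons may have been left unassigned, so this count does not give its level. The read-through fell in MDA-MB-468 (-2.29, adjusted p = 0.0238, on 5 against 22 counts). It did not pass in SUM149PT (31 against 14 counts) or HCC38 (6 against 17 counts). Its downstream partner PABPN1 stood at 64.4 ± 9.10 against 56.2 ± 5.19 CPM in MDA-MB-468, 51.9 ± 5.06 against 61.5 ± 9.81 CPM in SUM149PT and 47.4 ± 10.9 against 37.3 ± 0.287 CPM in HCC38, and passed the test in no line. PPP1R3E, which covers 6.51% of the BCL2L2 exons on the opposite strand, stood at 4.60 ± 0.189 against 7.19 ± 0.774 CPM, 8.65 ± 0.841 against 11.2 ± 1.05 CPM and 4.62 ± 0.140 against 4.99 ± 0.637 CPM in the same order of lines.

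**Figure D2:**
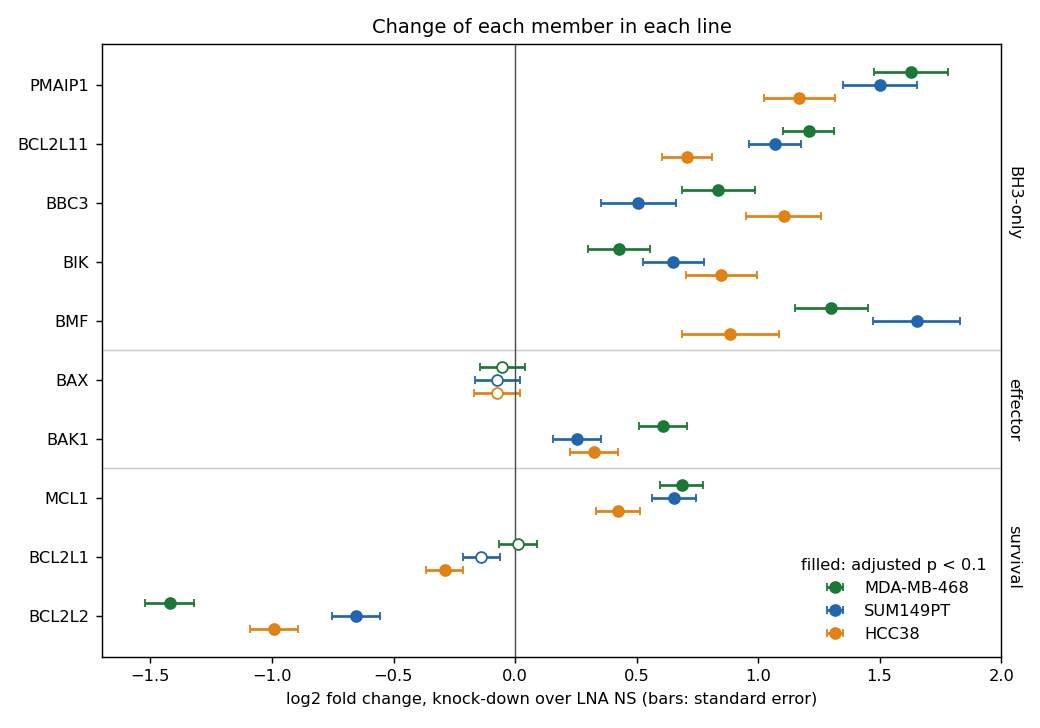
log2 fold change of each member, knock-down over LNA NS, with its standard error, for the 3 lines (filled points have an adjusted p under 0.1). BH3-only genes lie between 0.43 and 1.65, BAX near 0 and BCL2L2 between -1.42 and -0.65.

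With a change of more than 2-fold also required, the calls were PMAIP1, BCL2L11 and BMF upward and BCL2L2 downward in MDA-MB-468, beside 9.21% and 11.0% of all genes. In SUM149PT the same 3 genes rose by this rule and no member fell, beside 6.31% and 4.31%. In HCC38 PMAIP1 and BBC3 rose, beside 4.96%, and BCL2L2 at -0.99 lay just inside 2-fold, so that none fell, beside 4.41%. On the mean of the lines PMAIP1 and BMF rose and BCL2L2 fell by this rule, beside 7.09% and 5.43%. Across the lines, the change differed for 2 of the 10 members, BCL2L2 and BCL2L11, beside 32.4% of all genes. For the other 8 the adjusted p of the difference between lines was 0.114 to 0.999, which does not show equal changes.

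Since longer transcripts give more reads, levels of different members were compared as CPM per kilobase of annotated exon. The length joined all annotated exons of a gene, 2186 bp for PMAIP1, 6222 bp for MCL1, 4197 bp for BCL2L1 and 951 bp for BIK. It is not the length of the transcripts expressed, so the order of the members depends on it. In HCC38 after knock-down PMAIP1 ranked first per kb, at 135 ± 3.42 CPM per kb, ahead of BCL2L1 (56.2 ± 1.66) and MCL1 (51.4 ± 2.71). In CPM MCL1 was above PMAIP1 in that group, at 320 ± 16.9 against 296 ± 7.47. With LNA NS in HCC38, BCL2L1 (68.7 ± 1.80) and PMAIP1 (60.2 ± 6.19) led. MCL1 at 38.3 ± 0.0525 and BAX at 37.8 ± 3.02 CPM per kb did not differ beyond their spread. In MDA-MB-468 MCL1 led at 76.5 ± 7.19 CPM per kb after knock-down and 47.6 ± 0.932 with LNA NS, followed by BAX (33.0 ± 0.651 and 34.2 ± 1.06) and BCL2L1 (30.7 ± 0.641 and 30.4 ± 0.386). PMAIP1 held the fifth place there after knock-down, at 23.4 ± 6.31 CPM per kb, and the seventh with LNA NS, at 7.56 ± 0.171. In SUM149PT MCL1 led after knock-down (51.6 ± 1.64 CPM per kb), and BAX led with LNA NS (47.1 ± 3.34), ahead of BCL2L1 (41.3 ± 1.01). Per kb BIK ranked first of the BH3-only members in that line, at 33.8 ± 2.28 CPM per kb after knock-down and 21.5 ± 1.95 with LNA NS. PMAIP1 at 29.9 ± 4.01 lay within the spread of BIK after knock-down. In CPM, PMAIP1 (65.4 ± 8.77) and BCL2L11 (39.7 ± 2.48) were above BIK (32.2 ± 2.17) after knock-down. With LNA NS PMAIP1 and BIK were close, at 23.1 ± 1.73 and 20.5 ± 1.85 CPM. BMF was the rarest member in SUM149PT and HCC38, at 0.401 ± 0.00779 CPM per kb after knock-down and 0.216 ± 0.0394 with LNA NS in HCC38.

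Summed per kilobase, the 5 BH3-only members reached 159 and 154 CPM per kb in the knock-down libraries of HCC38, against 76.9 and 67.8 with LNA NS. In MDA-MB-468 the sums were 58.3 and 67.0 against 31.2 and 30.5, and in SUM149PT 68.5 and 78.4 against 35.5 and 38.7 CPM per kb. The BH3-only sum was higher in both knock-down libraries of each line. The 3 survival members summed to 112 and 111 CPM per kb after knock-down against 113 and 116 with LNA NS in HCC38. In MDA-MB-468 they summed to 108 and 116.9 against 91.2 and 91.6, and in SUM149PT to 96.7 and 98.8 against 88.8 and 86.4 CPM per kb. The survival sum thus lay higher after knock-down in 2 lines. In HCC38 the nearest libraries, 111.9 after knock-down and 112.7 with LNA NS, lay closer than the 2 LNA NS libraries (112.7 and 116.0). No direction is given for that line. The ratio of the BH3-only to the survival sum was 1.42 and 1.39 after knock-down against 0.682 and 0.585 with LNA NS in HCC38, the only group with a ratio above 1. It was 0.542 and 0.573 against 0.342 and 0.333 in MDA-MB-468, and 0.708 and 0.793 against 0.400 and 0.447 in SUM149PT. Without PMAIP1 the HCC38 ratio was 0.189 and 0.192 against 0.110 and 0.104. These sums follow from the single members and were given no test, and transcript ratios are not protein ratios. The size of a sum, and whether a ratio lies above 1, depend on the annotated exon lengths of the genes.

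**Figure D3:**
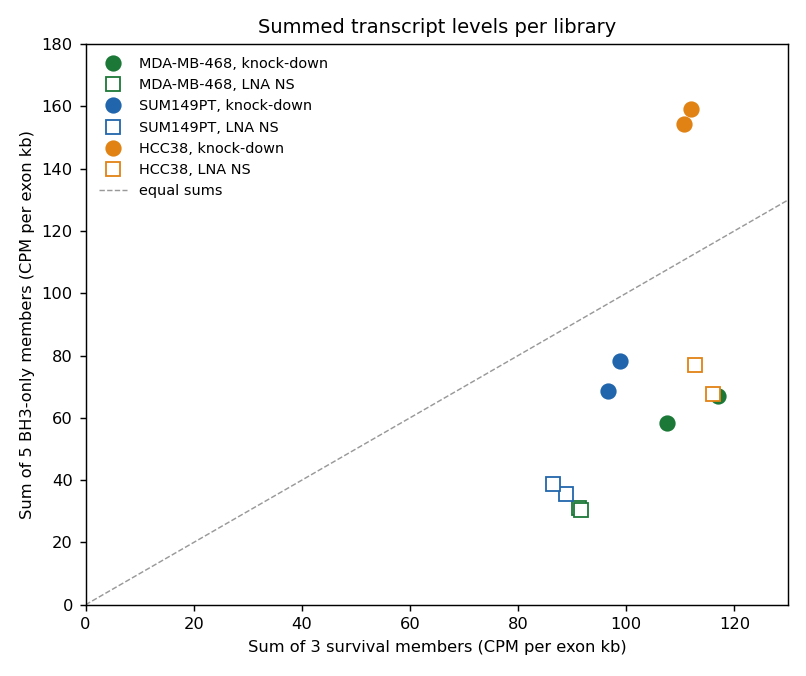
Sum of the 5 BH3-only members against the sum of the 3 survival members (both in CPM per kb of exon) in the 12 libraries, with filled circles for knock-down, open squares for LNA NS and a dashed line where the sums are equal. The 2 HCC38 knock-down libraries, at 159 and 154, lie above the line and the other 10 libraries lie below it. The place of a library against the line depends on the annotated exon lengths.

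The make-up within each role also moved, as shares of the sums per kb, which depend on the exon lengths in the same way. PMAIP1 made up 86.7% and 86.2% of the BH3-only sum in HCC38 after knock-down, against 83.9% and 82.3% with LNA NS. Its share was 32.5% and 41.6% against 23.9% and 25.2% in MDA-MB-468, and 39.5% and 41.8% against 28.1% and 28.7% in SUM149PT. BIK gave way in that sum, at 33.9% and 27.5% against 48.1% and 43.8% in MDA-MB-468, and 47.0% and 45.2% against 56.7% and 59.2% in SUM149PT. Among the survival members MCL1 made up 66.4% and 69.8% after knock-down against 51.5% and 52.7% with LNA NS in MDA-MB-468. The MCL1 share was 52.2% and 53.4% against 39.0% and 35.7% in SUM149PT, and 47.7% and 44.7% against 34.0% and 33.1% in HCC38. BCL2L2 was 4.60% and 4.29% of the survival sum after knock-down in MDA-MB-468, against 15.4% and 13.7% with LNA NS. The BCL2L1 share was 49.2% and 51.8% against 59.8% and 60.4% in HCC38, and 38.9% and 37.9% against 45.7% and 48.6% in SUM149PT. In MDA-MB-468 it was 29.0% and 25.9% against 33.1% and 33.6%. In each line, then, the survival sum contained relatively more MCL1 and less BCL2L1 and BCL2L2 after knock-down.

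The LNA NS libraries give the control level of each line at 24 h after transfection, and most members differed between lines, as did most genes. Between MDA-MB-468 and HCC38 9 members differed (71.4% of all genes), between SUM149PT and HCC38 10 (69.6%), and between MDA-MB-468 and SUM149PT 7 (68.5%). More than 2-fold differences were seen for 4, 3 and 1 of them in the same order, beside 43.6%, 40.1% and 40.7% of all genes. PMAIP1 averaged 16.5 ± 0.373 CPM in MDA-MB-468, 23.1 ± 1.73 CPM in SUM149PT and 132 ± 13.5 CPM in HCC38, so HCC38 was 7.96-fold above MDA-MB-468 and 5.70-fold above SUM149PT. BMF ran the other way, with 10.3 ± 1.07 CPM in MDA-MB-468, 2.05 ± 0.362 CPM in SUM149PT and 1.18 ± 0.215 CPM in HCC38, an 8.72-fold difference between the first and the last. BIK was 3.92-fold higher in MDA-MB-468 than in HCC38 and 5.95-fold higher in SUM149PT than in HCC38. BCL2L11 was lowest in SUM149PT, and BCL2L1 was highest in HCC38, at 128 ± 1.62 CPM in MDA-MB-468, 173 ± 4.22 CPM in SUM149PT and 288 ± 7.57 CPM in HCC38. BBC3, BAK1 and BCL2L2 did not differ between MDA-MB-468 and SUM149PT (adjusted p = 0.222, 0.885 and 0.864), nor BAX between MDA-MB-468 and HCC38 (adjusted p = 0.187). Without LNA NS replicate 1 of MDA-MB-468 the BBC3 difference was 0.38 (adjusted p = 0.0960). MCL1 was lower in SUM149PT than in HCC38 by a log2 difference of -0.23 (adjusted p = 0.0382), which was -0.14 (adjusted p = 0.303) without SUM149PT LNA NS replicate 2 and was lost also without LNA NS replicate 1 or 2 of HCC38 (adjusted p = 0.128 and 0.129).

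Other genes of the pathway were followed in 6 lists on the mean of the 3 lines, and those named are the 3 with the smallest adjusted p in each. The counts below stand beside 28.4% of all genes tested that rose and 26.5% that fell. Of 12 other BCL2 family genes tested 5 rose and 3 fell, the share that fell being near that of all genes, with a median log2 fold change of 0.12, beside a median of 0.04 over all genes tested. The 3 that fell were BCL2 itself, a survival gene (-0.73 ± 0.14, adjusted p = 0.000380), BOK, an effector-like gene (-0.61 ± 0.06, adjusted p = 3.74e-07), and BAD, a BH3-only gene (-0.43 ± 0.08, adjusted p = 0.000206). BCL2 stood at 2.21 ± 0.228 against 6.99 ± 0.378 CPM in MDA-MB-468, 1.35 ± 0.401 against 2.35 ± 0.0498 CPM in SUM149PT and 1.32 ± 0.184 against 1.12 ± 0.0217 CPM in HCC38, where it did not pass. HRK and BID, other BH3-only genes of the list named after their values were seen, rose on the mean of the lines. HRK had 0.41 ± 0.10 (adjusted p = 0.00261) and BID 0.14 ± 0.06 (adjusted p = 0.0537). Neither rise was shared by all lines. HRK passed for HCC38 alone (1.14), with log2 values of 0.06 (MDA-MB-468) and 0.04 (SUM149PT) elsewhere. BID passed for SUM149PT alone (0.47), with 0.04 (MDA-MB-468) and -0.11 (HCC38) elsewhere.

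Downstream of the mitochondrion, 5 of 10 genes for released proteins and caspases rose and 2 fell, beside the 28.4% and 26.5% of all genes, with a median of 0.15. The 7 calls were 4 without MDA-MB-468 LNA NS replicate 1, SUM149PT knock-down replicate 1 or HCC38 knock-down replicate 1. VDAC2, a channel of the outer mitochondrial membrane that is known to bind BAK1, rose on the mean of the lines (0.26 ± 0.07, adjusted p = 0.00450). AIFM1, a mitochondrial flavoprotein, and HTRA2, a mitochondrial protease, fell on that mean by 0.23 each on the log2 scale (adjusted p = 0.00120 and 0.00419). Neither passed in every line. AIFM1 passed in MDA-MB-468 alone (-0.33), with -0.17 in SUM149PT and -0.20 in HCC38. HTRA2 had -0.36 in MDA-MB-468 and -0.33 in SUM149PT, but 0.000743 in HCC38, where it did not pass. With upper quartile factors the HTRA2 mean was -0.12 (adjusted p = 0.106). Of 5 genes of the inhibitor of apoptosis family tested, 2 rose and none fell, beside the 28.4% and 26.5% of all genes, with a median of 0.11. BIRC3, which encodes cIAP2, rose in each line (mean 0.75 ± 0.06, adjusted p = 4.63e-08), reaching 239 ± 9.91 against 106 ± 6.72 CPM in SUM149PT. XIAP, a direct caspase inhibitor, had a mean of 0.21 ± 0.06 (adjusted p = 0.00682) and passed in HCC38 alone among the single lines. BIRC6 had -0.22 ± 0.11 (adjusted p = 0.119) and 0.34 (adjusted p = 0.00205) after removal of the gene span trend, so no direction is given for it.

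In the death receptor arm 5 of 11 genes rose and 4 fell, beside the 28.4% and 26.5% of all genes, with a median of 0.02. RIPK1, a kinase of receptor complexes, rose in each line (mean 0.78 ± 0.05, adjusted p = 2.22e-09). The receptors TNFRSF1A and FAS fell on the mean of the lines, with -0.52 ± 0.05 (adjusted p = 2.99e-07) and -0.82 ± 0.10 (adjusted p = 5.01e-06), and FAS did not pass in SUM149PT. Of 7 genes that act on the stability of the MCL1 or BIM protein, 1 rose and 6 fell, beside the 28.4% and 26.5% of all genes, with a median of -0.27. With upper quartile factors the 7 calls of this list were 4. By line, 4 fell in MDA-MB-468 (median -0.28), 1 fell in SUM149PT (median -0.04) and 5 fell in HCC38 (median -0.37), and 1 rose in each. The ubiquitin ligase gene HUWE1, whose product is known to mark MCL1 for degradation, fell in each line (mean -1.27 ± 0.11, adjusted p = 7.87e-08), to 207 ± 18.7 CPM in MDA-MB-468, against 610 ± 80.6 CPM with LNA NS. The mitochondrial ligase gene MARCHF5 rose in each line (mean 0.98 ± 0.06, adjusted p = 1.07e-09). BTRC fell on the mean (-0.39 ± 0.07, adjusted p = 0.000368), but stood at 0.05 (adjusted p = 0.592) once the gene span trend was removed. Of 11 genes for transcription factors known to act on BH3-only genes 6 rose and 3 fell, beside the 28.4% and 26.5% of all genes, with a median of 0.24. ATF3, a stress-induced factor, rose most (mean 1.87 ± 0.08, adjusted p = 2.87e-11), with 90.5 ± 16.3 against 26.8 ± 2.91 CPM in MDA-MB-468. JUN, a subunit of AP-1, had 0.83 ± 0.06 (adjusted p = 1.14e-08), and ATF4, the factor of the integrated stress response, 0.41 ± 0.05 (adjusted p = 3.31e-06), and both rose in each line.

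**Figure D4:**
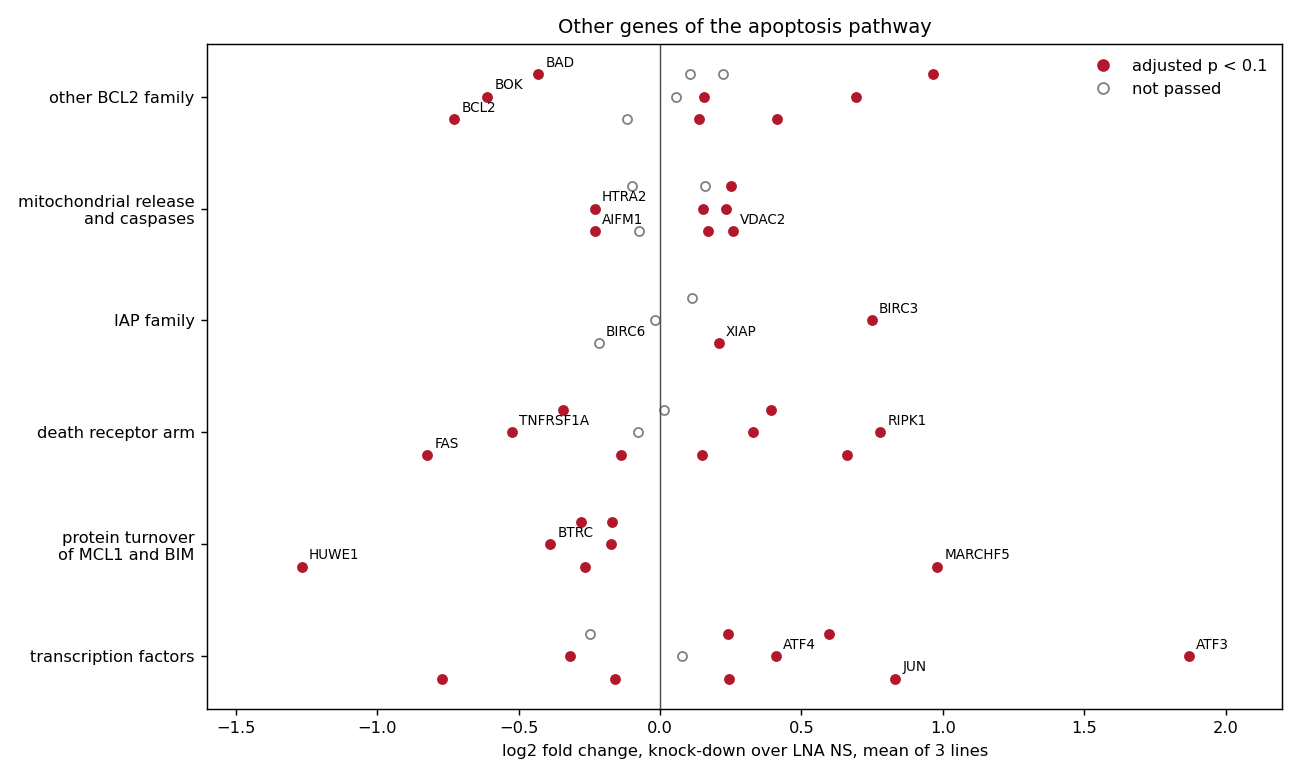
log2 fold change, knock-down over LNA NS, on the mean of the 3 lines for the tested genes of the 6 lists, with filled points for an adjusted p under 0.1 and the 3 genes of smallest adjusted p in each list named. ATF3 lies farthest to the right at 1.87 and HUWE1 farthest to the left at -1.27.

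Over the 12 libraries, the genes whose log2 CPM followed each member most closely were found among 14832 genes with a mean of at least 1 CPM. As the libraries share 3 lines and 2 treatments, these coefficients describe a common pattern and were not tested. The 2 nearest were DSC3 (Pearson r = 0.991) and HAPSTR1 (0.990) for PMAIP1, RBSN (0.985) and NT5DC3 (0.978) for BCL2L11, and IP6K1 (0.973) and PPP1R15A (0.969) for BBC3. For BIK they were GPRC5C (0.991) and TMED1 (0.989), and for BMF TRIM4 (0.993) and FRK (0.993). For BAX they were RRP9 (0.978) and PSMA7 (0.972), for BAK1 MIR9-1HG (0.983) and IDS (0.983), and for MCL1 NKRF (0.982) and AMMECR1L (0.980). BCL2L1 was nearest to SERPINA1 (0.993) and HECW1 (0.993), and BCL2L2 to TSPAN14 (0.993) and DGKQ (0.984). No member was the nearest gene of another member.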

How the data were processed

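Poly-A selected RNA of 12 libraries was sequenced with a strand-specific kit. The deposited files hold whole-number counts of reads per Ensembl gene, which the authors made with HTSeq 0.6.0 on GRCh37 (hg19). The submitters' processing notes name TopHat2 2.0.13 as the aligner, while the methods name another. The annotation release and the strand setting of the counting are not given in the sources used here. HTSeq's summary lines (unassigned reads), 40.8% to 53.7% of each file, were left out. Of 63677 identifiers 55665 matched a symbol in GENCODE lifted to GRCh37, from which loci and exon lengths were taken. Promoter windows came from RefSeq (GRCh38.p14).

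Counts were tested with edgeR 4.0.16 in R 4.3.3 (filterByExpr by group with a minimum count of 10, TMM factors, quasi-likelihood test on 6 group means, Benjamini-Hochberg over 21325 genes, call at an adjusted p under 0.1, 6 residual degrees of freedom). Contrasts were knock-down minus LNA NS in each line, their mean, their difference between lines, and the lines against each other with LNA NS. CPM uses TMM-scaled library sizes, the SE of a log2 fold change is its size over the root of F, and likeness used log2(CPM + 0.5). Replicate libraries differed beyond sampling noise (chi-square per degree of freedom 17.6 to 31.4). The test was tried on simulated counts first.

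Named genes were all 10 members, up to 3 of smallest adjusted p from each of 6 lists, the 2 nearest genes of each member, the targeted RNA and overlapping genes. HRK and BID were named after their values were seen. Members, lists and rules were chosen with earlier results of these data known. BCL2A1, BIRC7 and NAIP did not pass the filter, and 1 listed gene is not reported here. Alternatives were other scalings (RLE, upper quartile, library size), DESeq2 1.42.0, other filters, a replicate block, each line alone, a trend on gene span removed, each library left out and a 2-fold minimum.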

Additional observations from a re-analysis of the deposited data

Results flagged for a closer look

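Among the members and the list genes named by smallest adjusted p, the effect of the knock-down differed between the 3 lines for 12. The call came from the F test of that difference (edgeR's quasi-likelihood test, adjusted over all genes), and 32.4% of all genes had it. It was also met by HRK and BID, which were named outside that rule (adjusted p = 0.00533 and 0.0142). BCL2L2 fell most in MDA-MB-468 and least in SUM149PT (adjusted p = 0.00336), and BCL2L11 rose most in MDA-MB-468 and least in HCC38 (adjusted p = 0.0463). In the other lists BCL2 (adjusted p = 0.00297) changed by -1.66 (MDA-MB-468), -0.77 (SUM149PT) and 0.24 (HCC38) on the log2 scale, and BOK (adjusted p = 0.00262) by -1.03, -0.62 and -0.19. FAS (adjusted p = 0.00250) had -1.73, -0.16 and -0.58 in the same order. RIPK1 (adjusted p = 0.0294) had 0.86, 0.95 and 0.52, and BIRC3 (adjusted p = 0.00453) had 0.65, 1.17 and 0.42. VDAC2 (adjusted p = 0.0697) had 0.40, 0.42 and -0.05. XIAP (adjusted p = 0.0273) had 0.00, 0.11 and 0.52, and BTRC (adjusted p = 0.0242) had -0.45, 0.00 and -0.72. JUN (adjusted p = 0.00251) had 0.92, 0.37 and 1.20, and ATF4 (adjusted p = 0.0975) had 0.40, 0.59 and 0.24. With 2 libraries in a group, no library could be tested against the others of its group.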

How the results depend on the processing

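The counts of members called in each line and on the mean of the lines stayed within 1.5 times under every alternative but 1. With more than 2-fold also required they were 4 in MDA-MB-468, 3 in SUM149PT, 2 in HCC38 and 3 on the mean, and between lines with LNA NS 4 (MDA-MB-468 against HCC38), 3 (SUM149PT against HCC38) and 1 (MDA-MB-468 against SUM149PT). Members whose change differed between lines numbered 2, but 4 with upper quartile factors, with DESeq2 and with at least 10 counts in every library, 1 with the replicate block, and 1 to 3 with 1 library left out. Upper quartile factors moved the median log2 fold change of all genes by 0.14 in MDA-MB-468, 0.12 in HCC38 and 0.11 on the mean.

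Values whose sign turned were not called before the change, except BTRC. With upper quartile factors BAX stood at 0.0854 in MDA-MB-468, 0.0525 in HCC38 and 0.0422 on the mean. With 1 library left out it ranged over -0.160 to 0.00488 in HCC38. BCL2L1 in MDA-MB-468 stood at -0.00362 without the filter and at -0.0189 to 0.0350 with 1 library left out. Between MDA-MB-468 and SUM149PT with LNA NS, BAK1 stood at 0.0420 and BCL2L2 at 0.0395 by library size, and at 0.00498 and 0.00278 without the filter. With 1 library left out BAK1 ranged over -0.0604 to 0.0380 and BCL2L2 over -0.0934 to 0.0636. BAK1 there also stood at 0.0501 after the gene span trend was removed. With the gene span trend removed BIRC6 was 0.343 and BTRC 0.0504 on the mean. The cause was not tested.

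Samples with the same replicate number did not deviate together in every line (r = -0.02, 0.16 and -0.25 over 14833 genes), so the numbers were not taken as pairs. The replicate block gave 8 calls in MDA-MB-468, 7 in SUM149PT, 9 in HCC38 and 9 on the mean. It lost BAK1 in SUM149PT (adjusted p = 0.122) and the difference between lines of BCL2L11 (adjusted p = 0.107), and no other member's call.

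Calls of the 5 BH3-only genes, MCL1 and BCL2L2 by line held under all alternatives other than the 2-fold minimum, except BBC3 in SUM149PT and BIK in MDA-MB-468 with 1 library left out. Counts were lowest for BMF in HCC38.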
